A study of Mus musculus with 8 samples.

Results

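Heart muscle genes were followed in mouse embryonic stem (ES) cells and in the embryoid bodies made from them, through 40 listed genes that encode the sarcomere (23 genes), the calcium handling of the heart muscle cell (7), the natriuretic peptides (2) and the transcription factors of the heart (8). All 40 had at least 1 probe set that the platform annotation assigns to 1 gene symbol, 93 probe sets in all, among 18193 genes so represented on the array. A gene was read through its brightest probe set, and 33 of the 40 lay above the filter on dim genes and were tested among 12982 genes. Myom2, Xirp1, Ryr2, Slc8a1, Trdn, Cacna1c and Nppa did not pass that filter, so the counts below do not cover them. The cells were CCE ES cells of mouse strain 129/Sv, grown with leukemia inhibitory factor, and the 8 Affymetrix arrays measured total RNA of whole cultures. The 4 groups were embryoid bodies from ES cells infected with a lentivirus carrying mouse Bmi1 cDNA (2 arrays), embryoid bodies from ES cells infected with the empty vector (2), ES cells infected with the Bmi1 virus (2), and control ES cells, of which 1 array was untreated and 1 carried the empty vector. Infected cells had been sorted for eGFP, embryoid bodies were harvested at day 10, and no step in the labels selects heart cells. Values are log2 expression, and a difference of 1 log2 unit is a doubling of signal.

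The sarcomere is the repeating contractile unit of striated muscle, in which thick filaments of myosin slide along thin filaments of actin. Troponin and tropomyosin on the thin filament make the sliding depend on calcium, titin spans from the Z-disc to the middle of the unit, and each beat is set by calcium that the sarcoplasmic reticulum releases and takes back. Heart progenitors in the embryo express transcription factors such as Isl1, Nkx2-5, Hand2, Tbx5 and Mef2c before the contractile genes are turned on, and embryoid bodies are known to form beating patches.

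Features of the arrays themselves bear on every value below. By their value distributions the deposited columns formed 3 sets, namely embryoid bodies numbered 1, embryoid bodies numbered 2, and all 4 ES cell columns. Embryoid body differences are therefore also given within each replicate number and with that number as a block, and stage and set cannot be told apart. The signal of Bmi1, the transduced Polycomb gene, was lower in the arrays labelled Bmi1 at both stages (log2 difference -1.51 ± 0.37 in embryoid bodies and -1.59 ± 0.37 in ES cells, SE, n = 2 and 2), which is against the label. No source used here places its probes within or outside the cDNA, and the samples are therefore called "labelled Bmi1". Whether labels were exchanged, which would turn the sign of every difference between them, was not tested. With 2 arrays a group the precision is low, and since the labels name no separate cultures, the p-values reflect array-to-array spread that may be technical. Because whole cultures were measured, fewer heart muscle cells and less RNA per heart muscle cell cannot be told apart.

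The sequences before the transcription starts are shown for some members with a CArG box and for some of those called between embryoid bodies. A RefSeq promoter table (build GRCm38.p6) held 32 of the 40 members, and Tcap, Xirp1, Atp2a2, Myom2, Myocd, Trdn, Nexn and Tbx5 had no entry. In the 250 bases before each start, both strands were searched for the CArG box, bound by serum response factor (SRF) with its partner myocardin, the MEF2 box, the TATA box as TATAAA, the M-CAT element as CATTCC and a GATA site as AGATAA. A CArG box was found in 5 of 32 members, against 1.62% of all 27025 genes in the table. Those 5 were sarcomere genes, Actc1, Myl3, Myl7, Ldb3 and Myom1. The 120 bases before the start of 4 of them are given with the CArG box in capitals.
Actc1, chr2:114052876-114052995, minus strand: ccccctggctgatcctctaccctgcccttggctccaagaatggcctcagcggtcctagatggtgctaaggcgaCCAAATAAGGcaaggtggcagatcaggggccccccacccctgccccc
Myl7, chr11:5898783-5898902, minus strand: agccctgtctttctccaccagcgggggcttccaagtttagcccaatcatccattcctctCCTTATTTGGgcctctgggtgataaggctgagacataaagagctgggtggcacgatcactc
Myl3, chr9:110763558-110763677, plus strand: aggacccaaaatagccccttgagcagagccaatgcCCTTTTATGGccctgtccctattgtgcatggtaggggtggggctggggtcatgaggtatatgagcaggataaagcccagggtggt
Ldb3, chr14:34588682-34588801, minus strand: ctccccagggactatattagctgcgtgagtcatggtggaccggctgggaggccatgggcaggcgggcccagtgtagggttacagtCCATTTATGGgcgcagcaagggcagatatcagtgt

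The MEF2 box was found in Ttn, Mybpc3 and Casq2, 3 of 32 members, against 3.42% of all genes. The shorter motifs were common everywhere. TATAAA stood in 6 members against 14.3% of all genes. CATTCC was in 10 members against 14.4%, and AGATAA in 8 members against 11.4%. Where Myl2 held TATAAA and AGATAA they overlapped by 1 base. The promoters of Nppb, Myh6 and Pln, which had the largest differences between embryoid bodies among the members called with the replicate block described below, are printed next (120 bases for Nppb, 250 for the other genes). Capitals mark TATAAA in Nppb and Pln, CATTCC in Nppb and Myh6 (both as its complement GGAATG), and AGATAA in Nppb and Pln (in Pln as its complement TTATCT).
Nppb, chr4:147985780-147985899, plus strand: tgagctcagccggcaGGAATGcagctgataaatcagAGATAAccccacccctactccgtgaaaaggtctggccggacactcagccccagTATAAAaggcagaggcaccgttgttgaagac
Myh6, chr14:54966608-54966857, minus strand: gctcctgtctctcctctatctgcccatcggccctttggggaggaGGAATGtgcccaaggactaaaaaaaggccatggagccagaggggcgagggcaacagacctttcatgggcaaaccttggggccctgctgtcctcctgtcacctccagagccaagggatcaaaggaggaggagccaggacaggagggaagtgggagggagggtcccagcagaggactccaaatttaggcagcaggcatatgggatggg
Pln, chr10:53337436-53337685, plus strand: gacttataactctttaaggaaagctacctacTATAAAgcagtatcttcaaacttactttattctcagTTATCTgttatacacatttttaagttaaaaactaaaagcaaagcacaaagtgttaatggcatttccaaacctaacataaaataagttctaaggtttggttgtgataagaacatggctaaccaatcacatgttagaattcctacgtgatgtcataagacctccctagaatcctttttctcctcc

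Nppb held these 3 short motifs within 120 bases of its start, Myh6 and Pln held no CArG or MEF2 box in the 250 bases, and a match or its lack describes these letters only.

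Most heart muscle genes rose from ES cells to embryoid bodies. Of the 33 tested members, 22 were called higher in vector embryoid bodies than in control ES cells by limma (Benjamini-Hochberg adjusted p below 0.05 over all 12982 genes), against 22.7% of all genes called higher. No member was called lower, against 35.8% of all genes, and 2 were lower at an unadjusted p below the same threshold. For counts at an unadjusted p, here and below, the share of all genes was not computed, so they allow no comparison with the array. In samples labelled Bmi1, 26 members were called higher (21.2% of all genes) and 1, Atp2a2, lower (38% of all genes). With the embryoid body replicate block these counts became 28 higher and 3 lower in vector samples (29.5% and 45.3% of all genes) and 30 higher and 1 lower in those labelled Bmi1 (27.8% and 46.6%). The median difference of the members was 1.77 log2 units in vector and 2.77 in samples labelled Bmi1, where that of all genes was -0.24 and -0.27. In vector samples it was 2.29 for the sarcomere genes, 15 of 21 called higher, and 2.85 for the transcription factors, 6 of 8 called higher.

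The largest rise between stages belonged to Hand2, a basic helix-loop-helix factor of the second heart field, limb and branchial arches. It read 3.98 and 3.98 in the 2 control ES cell arrays and 3.77 and 3.67 in ES cells labelled Bmi1, but 11.49 and 10.67 in vector embryoid bodies and 10.69 and 10.72 in embryoid bodies labelled Bmi1. The difference was 7.10 ± 0.26 (SE, n = 2 and 2, adjusted p = 1.53e-05, limma) in vector and 6.98 ± 0.26 (adjusted p = 2.39e-05) in samples labelled Bmi1. Tnnt2, the cardiac troponin T, followed among sarcomere genes at 5.26 ± 0.33 (adjusted p = 5.78e-05) in vector samples, with 3.06 to 3.25 on the ES cell arrays and 7.82 to 9.17 on the embryoid body arrays. Isl1, the LIM homeodomain factor of second heart field progenitors, rose by 4.69 log2 units, the atrial regulatory light chain Myl7 by 4.60, and Actc1, the cardiac actin, by 3.86, all 3 called. Both troponin C (Tnnc1) and the slow troponin I of the fetal heart (Tnni1) rose, by 1.77 and 3.43. Nkx2-5, the homeodomain factor used to define early cardiomyocytes, was at 0.86 in vector (adjusted p = 0.0504, or 0.00875 with the block) and 0.73 in samples labelled Bmi1 (0.084, or 0.0178 with the block).

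**Figure D1:**
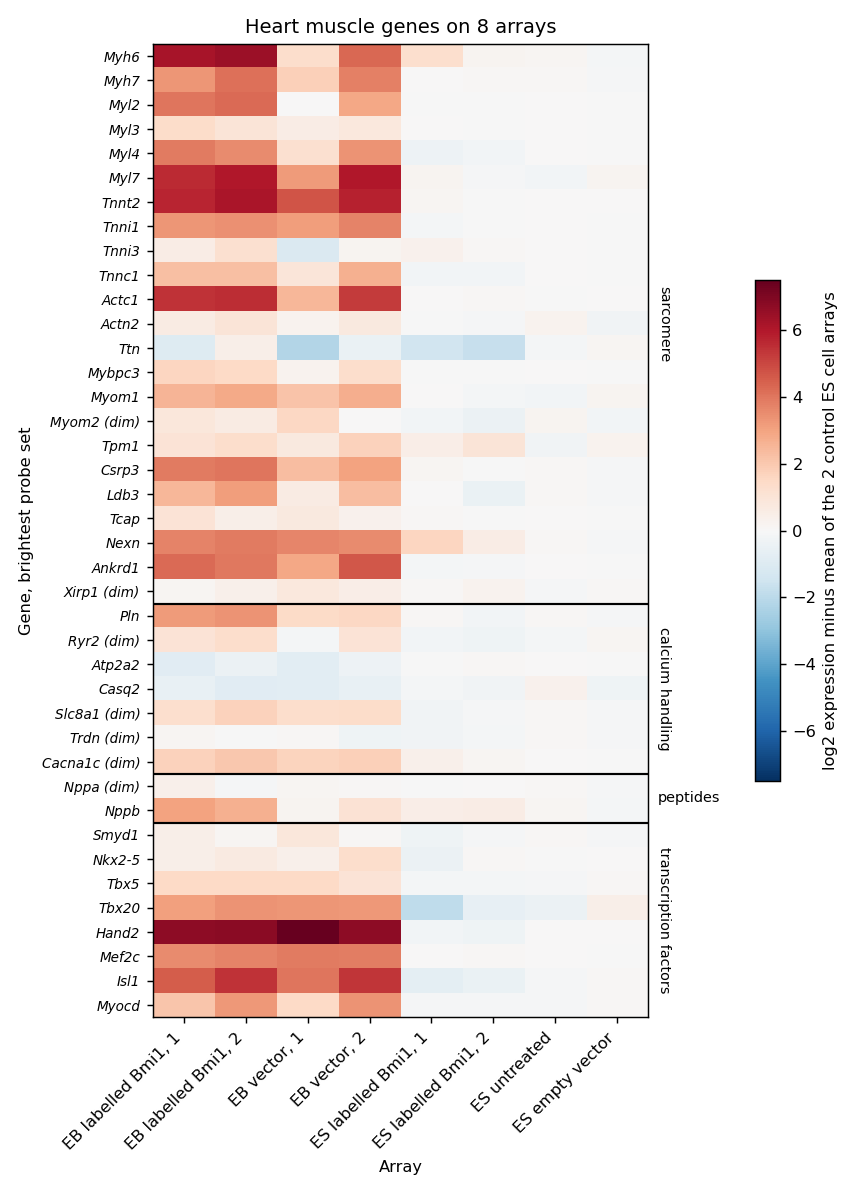
Log2 expression of each listed gene (brightest probe set, rows grouped by role) on the 8 arrays (columns), minus the mean of the 2 control ES cell arrays; red is higher and blue lower, and dim genes are marked. Sarcomere genes such as Myl2 and Actc1 are paler in the column of vector embryoid body replicate 1, at 4.27 and 8.03 log2 units, than in replicate 2, at 7.19 and 10.74. Hand2 is dark and Mef2c of an even, intermediate shade in all 4 embryoid body columns.

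Between the embryoid bodies, sarcomere genes were higher in those labelled Bmi1, and most of that difference lay in the replicate 1 arrays. Of 21 sarcomere genes tested, 19 were higher, 17 of them within both replicate numbers, where 5548 and 3297 of all 12982 genes were. Their median difference was 0.75 log2 units, where that of all genes was -0.04. That median was 1.34 for the replicate 1 pair and 0.24 for the replicate 2 pair. Of the 8 transcription factors 3 were higher, with a median of -0.11. Over all roles 24 of 33 members were higher, with a median of 0.31 that became 1.18 without vector replicate 2 and 0.13 without vector replicate 1.

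Few of these differences passed the test. Limma called 1 member, Pln, where 0.139% of all genes were called, and 8 members were higher at an unadjusted p below the threshold. Leaving out vector replicate 2 raised the count of called members to 14, where 1.68% of all genes were called, and leaving out any 1 of the other 7 arrays lowered it to 0. With the embryoid body replicate number as a block, 6 members were called higher, Pln, Nppb, Csrp3, Tnni3, Ttn and Myh6, where 1.35% of all genes were. None was called lower with the block (0 also at an unadjusted p below the threshold), where 0.739% of all genes were. In 12 of the 33 tested members both arrays labelled Bmi1 lay above both vector arrays, as did 10.8% of all genes, and in 1, Mef2c, both lay below, as did 14.4% of all genes.

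**Figure D2:**
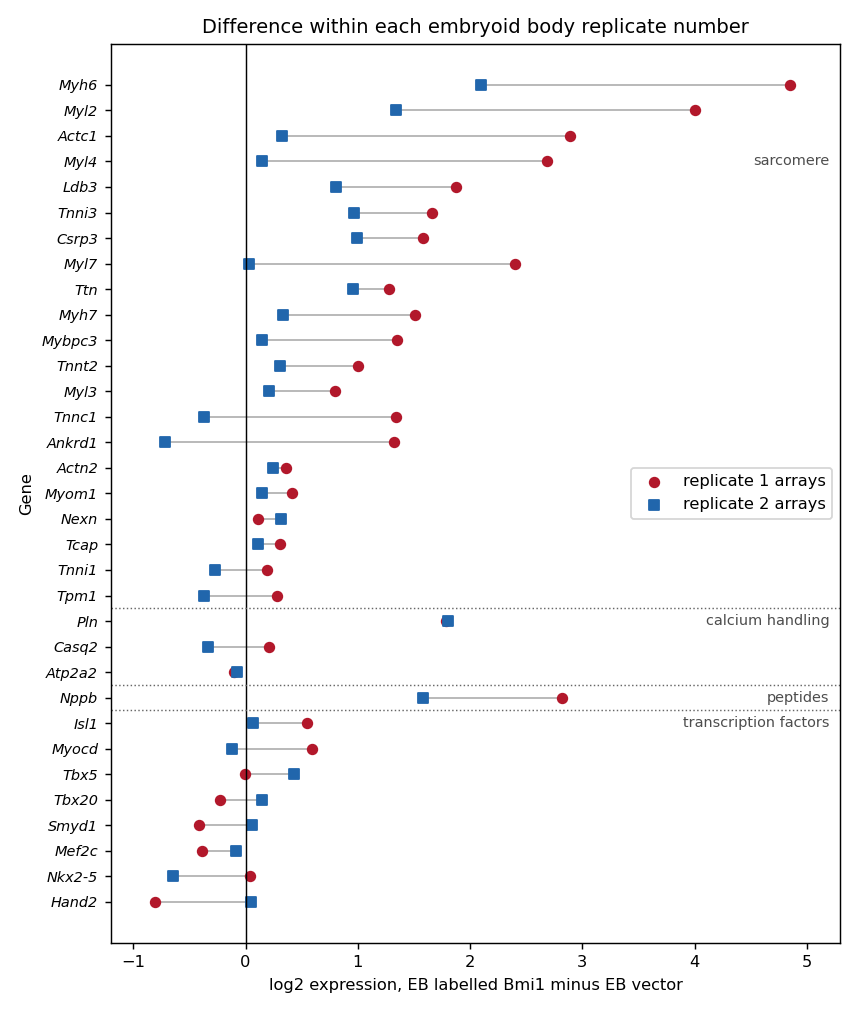
Log2 expression in embryoid bodies labelled Bmi1 minus vector embryoid bodies (x axis) for the 33 tested members (y axis, grouped by role), with a red circle for the replicate 1 arrays and a blue square for the replicate 2 arrays. Pln gives 1.79 and 1.81 and its symbols coincide, while Myl7 gives 2.40 and 0.03 and most other sarcomere genes also have a larger replicate 1 difference.

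Myh6 encodes the alpha myosin heavy chain, the fast motor of the mouse atrium and adult ventricle. It read 10.66 and 10.90 in embryoid bodies labelled Bmi1 (replicates 1 and 2), 5.81 and 8.81 in vector embryoid bodies, 5.74 and 4.70 in ES cells labelled Bmi1, and 4.60 and 4.36 in untreated and empty vector ES cells. Vector replicate 1 was thus near the ES cells, and the other 3 embryoid body arrays were far above them. The difference between embryoid bodies was 3.47 ± 0.86 (SE, n = 2 and 2, adjusted p = 0.313, limma), and with the block 3.47 ± 0.62 (adjusted p = 0.0468), with 4.85 and 2.10 within replicate numbers 1 and 2. It fell to 1.97 when vector replicate 1 was left out and reached 4.97 when vector replicate 2 was. Another, dim Myh6 probe set gave 0.82. Myh7, the slow beta chain that dominates in the embryonic ventricle, read 8.22 and 9.03 against 6.72 and 8.70, a difference of 0.92, with 1.51 and 0.33 within the replicate numbers. The probe sets of these neighbouring and closely related genes may read each other, and 2 probe sets assigned to both gave 3.22 and 0.56, and 0.88 and 0.15, within the replicate numbers.

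By their brightest probe sets, the regulatory and essential light chains of myosin were also lowest in vector replicate 1 among the embryoid bodies. Myl2, the ventricular regulatory light chain, read 8.28 and 8.53 in embryoid bodies labelled Bmi1 and 4.27 and 7.19 in vector embryoid bodies, and 4.23 to 4.29 on the 4 ES cell arrays. Vector replicate 1 thus lay within the range of the ES cells for this gene. The difference was 2.67 ± 0.79 (adjusted p = 0.429, limma, and 0.062 with the block), with 1.34 in the replicate 2 pair and the larger part in the replicate 1 pair. Myl4, the essential light chain of the atrium and embryonic ventricle, read 9.64 and 9.30 against 6.95 and 9.15, a difference of 1.42 ± 0.61 (adjusted p = 0.714, and 0.181 with the block), so the replicate 2 arrays were nearly level at 0.15. A second Myl4 probe set above the filter gave -0.02, with -0.22 and 0.17 within the replicate numbers, and was highest in vector replicate 1 at 6.43. Myl7 was level in the replicate 2 arrays too, at 10.34 and 10.31, and apart by 2.40 in the replicate 1 arrays. Myl3, the ventricular essential light chain, differed by 0.50, with 0.80 and 0.21.

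Among thin filament genes, Actc1 read 10.92 and 11.07 in the embryoid bodies labelled Bmi1 and 8.03 and 10.74 in those with the vector, and 5.47 to 5.62 on the ES cell arrays. Its difference was 1.61 ± 0.73 (SE, n = 2 and 2, adjusted p = 0.735, limma, and 0.147 with the block), with 2.89 and 0.33 within the replicate numbers. Tnni3, the troponin I isoform that replaces Tnni1 as the heart matures, read 6.30 and 6.95 against 4.64 and 5.98. Its difference of 1.32 ± 0.42 (adjusted p = 0.513, limma) was called with the block at ± 0.18 (adjusted p = 0.0281), and was 1.66 and 0.97 within the replicate numbers. Its vector values are low: replicate 1 lay below that array's median of 5.96, and replicate 2 lay near its median of 5.89. On the 4 ES cell arrays Tnni3 read 5.72 to 6.08, so vector replicate 1 lay below them, and its rise between stages in samples labelled Bmi1, 0.66, was called with the block (adjusted p = 0.0138) and without either vector embryoid body array (0.0424 in both fits), but not otherwise (0.22 in the fit of all arrays without the block). Tnni1 went the other way in the replicate 2 arrays, at 0.19 and -0.27, and Tnnt2 gave 1.00 and 0.31. Tnnc1 and Tpm1, the alpha tropomyosin, also changed sign between the replicate numbers, at 1.34 and -0.37 and at 0.28 and -0.37.

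Csrp3 is the muscle LIM protein that binds the Z-disc. It read 8.70 and 8.84 in the embryoid bodies labelled Bmi1, 7.12 and 7.85 in those with the vector and 4.71 to 5.00 on the ES cell arrays. The difference was 1.29 ± 0.26 (SE, n = 2 and 2, adjusted p = 0.195, limma), called with the block at ± 0.17 (adjusted p = 0.0271), with 1.58 and 0.99 within the replicate numbers. Ldb3, a Z-disc PDZ-LIM protein, read 7.20 and 7.84 against 5.32 and 7.03, a difference of 1.34 ± 0.52 (adjusted p = 0.643, and 0.0653 with the block). Its dim probe sets gave 0.28 and 0.03. Ankrd1, a stress-responsive ankyrin repeat protein of the I-band, reversed between the replicate numbers, at 1.32 and -0.71. The remaining structural genes differed little, from 0.11 to 0.41 in Actn2, Myom1, Nexn and Tcap, and by 1.35 and 0.14 in Mybpc3, the myosin binding protein C of the heart.

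Ttn encodes titin. It read 6.66 and 8.04 in embryoid bodies labelled Bmi1 and 5.38 and 7.08 in vector embryoid bodies, so replicate 2 was above replicate 1 in both groups and the groups overlapped. The difference of 1.12 ± 0.61 (SE, n = 2 and 2, adjusted p = 0.805, limma) was called with the block at ± 0.16 (adjusted p = 0.0286), with 1.28 and 0.96 within the replicate numbers. Without 1 embryoid body array it ran from 0.27 (vector replicate 1) to 1.97 (vector replicate 2). A second probe set above the filter gave 1.13, and the 4 dim ones gave -0.20 to 0.47.

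The level of sarcomere genes in vector replicate 1 stood apart from the other 3 embryoid body arrays. Vector replicate 1 was the lowest of the 4 arrays for 24 of 33 members, where this held for 27.4% of all genes, and for 19 of 21 sarcomere genes. Vector replicate 2 exceeded vector replicate 1 by over 1 log2 unit in 15 of 33 members (7.89% of all genes), and the replicate 2 array labelled Bmi1 exceeded its replicate 1 by as much in 2, Myocd and Ttn (3.57% of all genes). The root mean square difference between the 2 vector arrays was 1.44 log2 units over the members and 0.67 over all genes, and between the 2 embryoid body arrays labelled Bmi1 it was 0.49 and 0.51. The array labelled Bmi1 exceeded the vector array by over 1 log2 unit in 16 of 33 members in the replicate 1 pair (2.17% of all genes) and in 4, Myh6, Myl2, Nppb and Pln, in the replicate 2 pair (1.19% of all genes).

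Other cell types also differed between the 2 vector arrays. The mean level of 15 pluripotency genes was 7.99 in vector replicate 1 and 9.90 in vector replicate 2, and 8.32 and 9.41 in embryoid bodies labelled Bmi1, so it was higher in replicate 2 of both groups. The 8 epicardial genes went the other way, with 8.01 and 7.10 in the vector arrays and 7.44 and 7.04 in those labelled Bmi1. The part of either in the sarcomere result was not tested. The mean level of the 23 sarcomere genes was 8.01 and 8.21 in embryoid bodies labelled Bmi1 and 6.67 and 7.85 in vector embryoid bodies. Skeletal muscle genes were near the background: 18 of the 24 listed lay below the array median on all 4 embryoid body arrays, the defining factor Myod1 among them at 4.87 to 5.34.

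**Figure D3:**
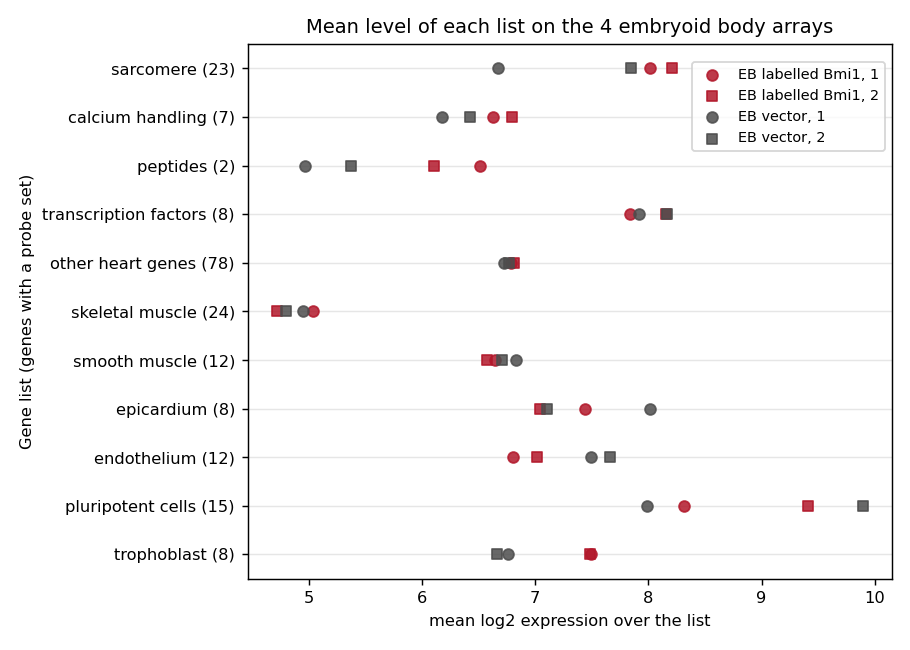
Mean log2 expression (x axis) of each gene list (y axis, number of genes with a probe set in brackets) on the 4 embryoid body arrays; red marks arrays labelled Bmi1, grey vector arrays, circles replicate 1 and squares replicate 2. The sarcomere row has vector replicate 1 at 6.67 and the other 3 arrays at 7.85 to 8.21, the rows of heart transcription factors and other heart genes are narrow, and the pluripotency row separates replicate 1 from replicate 2.

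Pln encodes phospholamban, the small membrane protein that restrains the calcium pump Atp2a2. It read 7.69 and 7.82 in embryoid bodies labelled Bmi1, 5.90 and 6.02 in vector embryoid bodies, 4.59 and 4.30 in ES cells labelled Bmi1 and 4.58 and 4.39 in control ES cells. Arrays of a group lay close together, and embryoid bodies labelled Bmi1 lay above vector embryoid bodies, which lay above ES cells. The difference between embryoid bodies was 1.80 ± 0.18 (SE, n = 2 and 2, adjusted p = 0.0331, limma), with the block ± 0.14 (adjusted p = 0.00478), and it was 1.79 and 1.81 within the replicate numbers. Its 3 probe sets gave 1.63, 1.80 and 1.97. The first of these was less even, at 1.13 and 2.12 within the replicate numbers, and in the last the vector arrays lay further apart, at 4.73 and 5.49. None of the 3 was called when every probe set was tested on its own without the block (adjusted p = 0.0571 to 0.211, limma). The call was lost in most other unblocked settings, with adjusted p from 0.00478 to 0.733 over 16 alternatives, of which 5 called it, whereas the difference stayed between 1.73 and 1.87 when any 1 array was left out. From ES cells it rose by 1.48 in vector (adjusted p = 0.00059) and by 3.31 in samples labelled Bmi1 (adjusted p = 4.29e-05).

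The pump and the calcium buffer were nearly level between the embryoid body groups. Atp2a2, which returns calcium to the sarcoplasmic reticulum and is also expressed outside muscle, read 11.34 and 11.77 in embryoid bodies labelled Bmi1, 11.44 and 11.84 in vector embryoid bodies and 12.19 to 12.29 on the ES cell arrays. The difference was -0.09 ± 0.22 (SE, n = 2 and 2, adjusted p = 1, limma), and the mean over its probe sets had the opposite sign, 0.17. Its 6 probe sets gave -0.57 to 0.76, and those at 0.76 and 0.57 were also higher within both replicate numbers. The fall between stages in samples labelled Bmi1, by 0.69 on the log2 scale (adjusted p = 0.0285), turned to a rise of 0.31 after quantile normalization. Casq2, the calcium-binding protein of the cardiac sarcoplasmic reticulum, read 6.16 and 5.86 against 5.96 and 6.19, a difference of -0.06 ± 0.26. Of the dim calcium genes, Ryr2, the calcium release channel, read 5.80 and 6.13 against 4.64 and 5.80. A dimmer Ryr2 probe set gave -0.08 and -0.07 within the replicate numbers. The brightest probe sets of Slc8a1, Cacna1c and Trdn differed by -0.05 to 0.31 between the embryoid body groups within the replicate numbers. All Slc8a1 probe sets ran from -0.31 to 0.54. All Trdn probe sets were higher within both numbers, by up to 0.58 and 1.72 in a dim one.

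Of the natriuretic peptides, which the heart secretes and which mark embryonic and stressed heart muscle, Nppb was among the largest differences. It read 8.70 and 8.34 in embryoid bodies labelled Bmi1, 5.87 and 6.75 in vector embryoid bodies, 6.17 and 6.23 in ES cells labelled Bmi1 and 5.87 and 5.52 in control ES cells. Embryoid bodies labelled Bmi1 stood above all 6 other arrays, and vector replicate 1 was level with the untreated ES cells. The difference was 2.20 ± 0.31 (SE, n = 2 and 2, adjusted p = 0.0734, limma), and with the block ± 0.28 (adjusted p = 0.0237), with 2.82 and 1.58 within the replicate numbers. Over 17 alternatives its adjusted p ran from 0.00695 to 0.733. Between stages it rose by 2.32 in samples labelled Bmi1 (adjusted p = 0.000887), whereas the vector value was 0.62 (adjusted p = 0.118). Nppa, its atrial relative, was dim on all arrays, at 3.84 to 4.33, and was not tested.

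Among the transcription factors of the heart, Hand2, Isl1, Tbx20 and Mef2c read 7.67 to 11.49 on the 4 embryoid body arrays, vector replicate 1 included, whereas Nkx2-5 and Smyd1 read 6.04 to 7.11 and Myocd, at 5.89 in vector replicate 1, lay below that array's median of 5.96. The 6 members called between the embryoid body groups with the block include no transcription factor. Hand2 read 10.69 and 10.72 against 11.49 and 10.67, a difference of -0.38 ± 0.26 (SE, n = 2 and 2, adjusted p = 0.878, limma), with -0.80 and 0.05 within the replicate numbers. Isl1 read 8.93 and 9.81 against 8.38 and 9.75, a difference of 0.31 ± 0.46 with 0.55 and 0.07. Nkx2-5 read 6.23 and 6.46 against 6.19 and 7.11, a difference of -0.31 ± 0.32 with 0.04 and -0.65. These 3 values change sign when single embryoid body arrays are left out. Tbx5, Tbx20 and Smyd1, a muscle histone methyltransferase, were at 0.22, -0.04 and -0.18. Myocd, the partner of SRF at CArG boxes, followed the replicate number more than the label, with 6.48 and 7.67 against 5.89 and 7.79.

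Mef2c, the MADS-box factor that binds the MEF2 box, was the single tested member with both arrays labelled Bmi1 below both vector arrays. It read 7.67 and 7.86 against 8.06 and 7.95, and 4.08 to 4.21 in ES cells, a difference between embryoid bodies of -0.24 ± 0.16 (SE, n = 2 and 2, adjusted p = 0.87, limma, and 0.312 with the block). All 5 of its probe sets were lower, by up to 1.07 log2 units. That probe set read 5.86 and 6.33 against 6.96 and 7.36, or -1.10 and -1.04 within the replicate numbers. When every probe set was tested on its own with the block, it was called lower (adjusted p = 0.0322 over 26332 probe sets, of which 0.118% were called lower). In that fit 3 member probe sets were called higher, 2 of Pln and 1 of Nppb, where 0.414% of all were. The probe set was singled out after its values were seen.

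**Figure D4:**
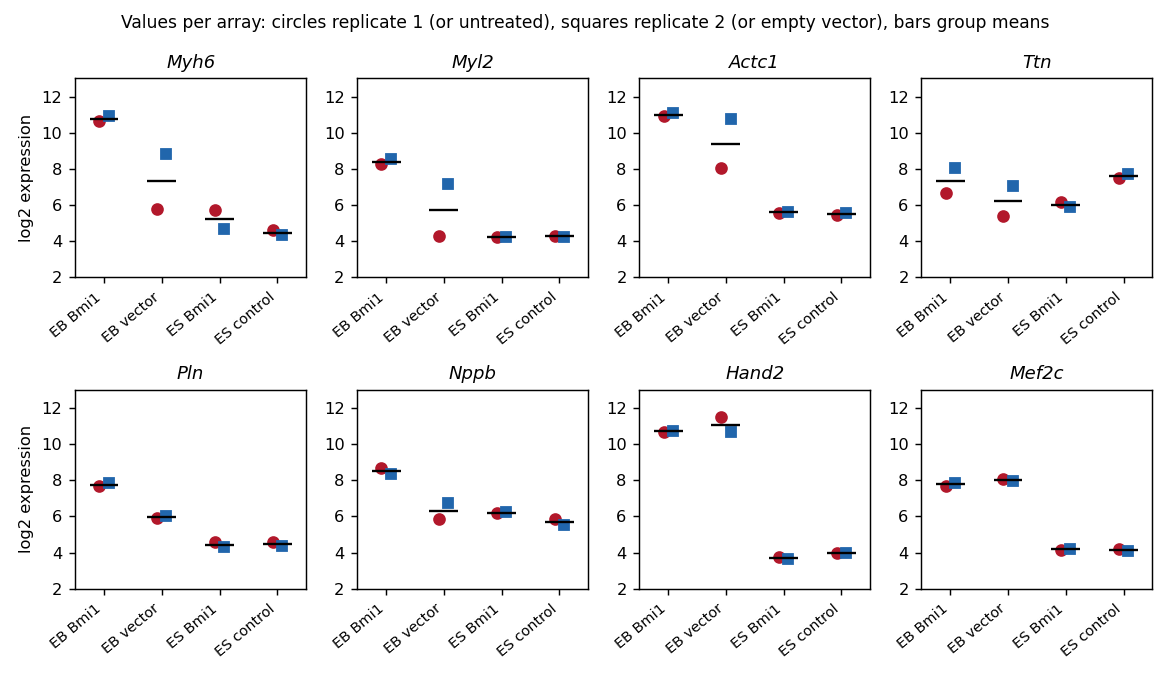
Log2 expression (y axis) of 8 members in the 4 groups (x axis); circles are replicate 1 or the untreated array, squares replicate 2 or the empty vector array, and bars the group means. Myh6, Myl2 and Actc1 have 1 low circle in the vector embryoid bodies, at 5.81, 4.27 and 8.03, Pln has 2 close pairs, and Hand2 and Mef2c are high in all embryoid bodies.

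Before differentiation, heart muscle genes were mostly low at both labels. The median difference of the 33 tested members, ES cells labelled Bmi1 minus their controls, was -0.03. Limma called none of them, where 0.0462% of all genes were called, and 3 reached an unadjusted p below the threshold. The block changes no ES cell difference, but it changes the error. With it Ttn was called lower, as were 35 of all 12982 genes, and 1.66% of all genes were called in either direction. Ttn read 6.17 and 5.88 in ES cells labelled Bmi1 and 7.48 and 7.72 in the untreated and empty vector controls, a difference of -1.58 ± 0.61 (SE, n = 2 and 2, adjusted p = 0.682, limma), or ± 0.16 with the block (adjusted p = 0.0164). Over 14 alternatives its adjusted p ran from 0.0164 to 1. The second probe set of Ttn gave -0.98, and the dim ones gave -0.12 to 0.10. By its brightest probe set Ttn was lower in vector embryoid bodies than in control ES cells, at -1.37 (adjusted p = 0.0886, limma, and 0.000226 with the block). In samples labelled Bmi1 it was higher in embryoid bodies, at 1.32 (adjusted p = 0.0963, and 0.000269 with the block). The difference in vector samples was -0.12 by the second probe set, and the dim ones gave -8e-04 to 1.14.

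The difference between the stages in the effect of the label was tested directly. Limma called no member, where 0% of all genes were called, and 5 members reached an unadjusted p below the threshold. With the block it called 2, Ttn and Pln, where 0.824% of all genes were called. For Ttn the embryoid body difference minus the ES cell difference was 2.69 ± 0.86 (SE, adjusted p = 0.53, and 0.0159 with the block). For Pln it was 1.83 ± 0.25 (adjusted p = 0.133, and 0.0209 with the block), and its ES cell difference alone was -0.04. Without vector replicate 2 the unblocked count was 8 members, where 0.77% of all genes were called.

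The wider list of heart genes had no common direction. Of 87 other heart genes, among them ion channels, metabolic genes and further factors, 59 were tested. Of these 29 were higher in embryoid bodies labelled Bmi1, where 5548 of all 12982 genes were, and the median difference was -0.0028. With the block limma called 1 of the 59, Gata4, the zinc finger factor of heart and endoderm, lower, where 0.739% of all genes were. Gata4 read 6.23 and 6.69 against 7.15 and 7.86, a difference of -1.04 ± 0.28 (SE, n = 2 and 2, adjusted p = 0.352, and 0.0286 with the block), with -0.92 and -1.17 within the replicate numbers. Fabp3, the fatty acid binding protein of heart muscle, was also lowest in vector replicate 1 among the embryoid bodies. It read 10.98 and 10.99 against 8.62 and 10.43, a difference of 1.46 ± 0.51 (adjusted p = 0.562). Unlike most sarcomere genes, Fabp3 was already high on the ES cell arrays, at 10.74 to 11.08. Its difference between stages was -1.39 in vector and 0.01 in samples labelled Bmi1. Irx4, a homeodomain factor of the ventricle, was at 1.11 ± 0.26 (adjusted p = 0.291), and the adhesion molecule Vcam1 at -0.68 ± 0.22 (adjusted p = 0.513).

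Endothelial markers were lower in embryoid bodies labelled Bmi1, and trophoblast markers mostly higher. All 10 tested endothelial genes had lower values there, with a median of -0.56, where 5548 of all 12982 genes tested had higher ones. With the block 3 of the 10 were called lower, Pecam1 at -1.47, Tek at -1.09 and Emcn at -0.96, where 0.739% of all genes were. The 8 epicardial genes had a median of -0.44, or -1.07 and 0.04 within the replicate numbers, and Aldh1a2, the retinoic acid synthesis enzyme, was called lower with the block at -0.85. The 8 tested smooth muscle genes had a median of -0.28, the 10 early mesoderm genes -0.21 and the 7 tested skeletal muscle genes -0.12. The median was -0.09 for the 15 pluripotency genes, or 0.32 and -0.59 within the replicate numbers. Hand1, also listed among the other heart genes, was among the 5 tested trophoblast genes. Their median was 0.68, or 1.29 and 0.12 within the replicate numbers, so most of that difference lay in the replicate 1 arrays. Of these genes, Plac1 was called higher with the block at 1.49, where 1.35% of all genes were. The part of these cell types in the differences of the heart muscle genes was not tested.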

How the data were processed

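Expression was measured on 8 Affymetrix arrays, 1 per sample, from biotin-labelled total RNA. The authors deposited log2 expression values. They made them with RMA (per the submitters' processing notes; version and grouping of arrays not given in the sources used here). RMA subtracts background, equalizes the distributions of jointly treated arrays and combines probes into 1 value per probe set, so its scaling can enter comparisons between sets of arrays.

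After 64 array controls were set aside, 45037 probe sets remained, of which 34945 had 1 gene symbol in the platform annotation, 932 several and 9160 none. Symbols were checked by gene number against a RefSeq gene table: 0 changed, and 204 without a match were kept. Each gene was read through its brightest one-symbol probe set by mean over the 8 arrays, and tested if 2 or more arrays put it above their median over non-control probe sets. R 4.3.3 with limma 3.58.1 fitted 1 model with 4 groups (lmFit, then eBayes, 4 residual degrees of freedom), with two-sided p-values adjusted by Benjamini-Hochberg over all genes tested and a threshold of 0.05. SEs are those of the moderated fit.

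The replicate numbers of the embryoid body arrays follow the sets seen in the value distributions. Deviations from the group means correlated at r = 0.721 between the same-numbered embryoid body groups and at 0.027 and 0.038 with the ES cells labelled Bmi1, so the number was used as a block for the 4 embryoid body arrays alone, leaving 3 residual degrees of freedom. The mean absolute difference between sorted columns was 0.00994 to 0.0325 within sets (8 pairs) and 0.189 to 0.442 across them (20 pairs).

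The members and gene lists were chosen with earlier results of these data known, so counts over them are descriptions and no list was tested. Per-array values are given for members called in either comparison of the label, with or without the block, and for the 4 with the largest absolute embryoid body difference in each role; other members shown were added after their values were seen. The scripts were tested on simulated data. Promoter sequences came from RefSeq (GRCm38.p6). Alternatives covered the filter, the probe sets, the scaling, the block, the arrays fitted, the variance prior and leaving out each array.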

Additional observations from a re-analysis of the deposited data

Results flagged for a closer look

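The effect of the Bmi1 label differed between the stages for Ttn and Pln, by a test of that difference with the embryoid body replicate number as a block. For Ttn the embryoid body difference minus the ES cell difference was 2.69 log2 units (limma adjusted p = 0.0159 with the block and 0.53 without), higher in embryoid bodies labelled Bmi1 within both replicate numbers and lower in both ES cell arrays labelled Bmi1. It ran from 1.84 without vector embryoid body replicate 1 to 3.54 without vector embryoid body replicate 2. The second Ttn probe set gave 1.13 between embryoid bodies and -0.98 between ES cells. Its dim probe sets gave -0.20 to 0.47 and -0.12 to 0.10. For Pln the difference between stages was 1.83 (limma adjusted p = 0.0209 with the block and 0.133 without), and 1.69 to 1.98 when any 1 array was left out.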

How the results depend on the processing

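Precision is limited by 2 arrays a group, and fits without 1 embryoid body array carry no block and so mix in differences between replicate numbers. The member called between embryoid bodies (1, Pln) became 0 with the 75th percentile filter, which tested 18 members and not Pln, with median centring, with a replicate block over the 6 numbered arrays, with embryoid body arrays alone and with an intensity trend and robust prior; it was 6 with the embryoid body replicate block. Leaving out 1 array gave 0 to 14 members, with 14 without vector embryoid body replicate 2. The median over members, 0.31, was 0.13 to 1.18 in those fits. Between ES cells the count of 0 became 1 with the embryoid body replicate block or with ES cell arrays alone. For the difference between stages in the effect of the label, 0 became 2 with that block, and 0 to 8 without 1 array. From ES cells to embryoid bodies labelled Bmi1 the 27 members called became 17 with the 75th percentile filter, of 18 tested, and 24 to 31 without 1 array; in vector samples 22 became 15 to 26. No other count of called members moved by over 1.5 times. For most of these alternatives the share of all genes called is not given. Counts without such a share, here and in the next paragraph, allow no comparison with the array.

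Signs turned in embryoid bodies for Atp2a2 (0.17 with the mean of its probe sets, and -0.30 to 0.13 without 1 array), and without 1 array for Casq2 (-0.21 to 0.089), Nkx2-5 (-0.77 to 0.16), Hand2 (-0.79 to 0.033) and Isl1 (-0.38 to 0.99). Between stages Atp2a2 turned after quantile normalization, to 0.36 in vector and 0.31 in samples labelled Bmi1. Median centring moved the median stage difference of all genes from -0.24 to -0.56 in vector samples, and quantile normalization moved it to -0.04. Of the genes called in either direction, the share called higher went from 38.8% to 26.6% and 48.7%. Called members were 19 higher and 3 lower, and 19 higher and 1 lower. In samples labelled Bmi1 that share of the called genes went from 35.8% to 22.8% and 47.3%. Where the construction of the alternative does not show it, the cause was not tested. An alternative background correction was not run, since the values used here are already summarised.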
